A study of Homo sapiens with 4 samples.

Results

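The genes described here were *MNAT1*, which encodes the assembly subunit MAT1 of the CDK-activating kinase (CAK), its partners *CDK7* and *CCNH*, and the 7 genes of the core of transcription factor IIH (TFIIH), which were *ERCC2*, *ERCC3*, *GTF2H1*, *GTF2H2*, *GTF2H3*, *GTF2H4* and *GTF2H5*. They were 10 of the 63677 genes in the count table. *MNAT1* was chosen because its count was much higher with the miR-6133-5p mimic than with miControl, so its difference between the groups is given as a description, without a test. The 9 other genes were taken for their place in the same complex, and the question was whether they moved together with *MNAT1*.

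CAK consists of the kinase CDK7, cyclin H, which is its activating partner, and MAT1, which stabilizes the pair and anchors it to the rest of TFIIH. As a free complex, CAK phosphorylates the activation loop of the cyclin-dependent kinases that drive the cell cycle. Bound to the TFIIH core, it phosphorylates the tail of RNA polymerase II when transcription begins, and the core also opens DNA for transcription and for nucleotide excision repair.

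The cells were LX-2, a human cell line derived from hepatic stellate cells, which produce the collagen of the fibrotic liver. They received either the miR-6133-5p mimic or the negative control mimic miControl at 20 nM, and all of them were given 5 ng/mL of rhTGF-β1, a profibrotic cytokine, 24 h later. RNA was taken after a further 24 h, with 2 libraries in each group, called replicates 1 and 2. Nothing in the sources used here says whether the replicates were separate cultures, so the p-values measure the spread between these libraries, which may be technical. No library of untransfected cells was used here, so a higher level with the mimic and a lower level with miControl cannot be told apart.

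The hairpin from which miR-6133 is cut identifies the molecule that was introduced. It lies on chromosome 7 of GRCh38.p14 from 133290881 to 133290988 on the plus strand, and RefSeq gives its 108 bases, printed 5′ to 3′ and with no base in capitals.
MIR6133: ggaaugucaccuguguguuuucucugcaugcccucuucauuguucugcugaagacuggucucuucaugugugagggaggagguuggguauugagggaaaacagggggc

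Counts on genes summed to between 51862006 and 93811213 per library. Levels are given as CPM, counts scaled to a common library total, in which each library total was scaled with edgeR's TMM factor, and 3 counts were at most 0.0610 CPM. Of all genes, 18252 passed the filter on low counts and were tested, and all 10 genes of the complex were among them. Differences are log2 fold changes, miR-6133-5p over miControl, with their standard error (SE), and p-values came from edgeR's quasi-likelihood test with Benjamini-Hochberg adjustment over all tested genes. Genes were called at an adjusted p below 0.01 with a log2 fold change beyond 0.8, the thresholds of the study's methods. A wider call, an adjusted p below 0.05 at any fold, was added because small shifts of the partners would be missed. All 7 stellate or fibroblast markers were counted, with a summed level of 5079 to 5597 CPM with miControl and 3025 to 3363 CPM with miR-6133-5p. The largest fall in CPM was that of *COL1A1*, from a mean of 2917 to 1064 CPM, and *COL1A2*, *COL3A1*, *ACTA2* and *TAGLN* were also lower. The groups overlapped for *VIM* (means of 1815 and 1793 CPM) and *PDGFRB* (41.7 and 42.8 CPM). Markers of hepatocytes summed to at most 2.84 CPM, those of leukocytes or Kupffer cells to at most 0.325 CPM and those of endothelial cells to at most 1.35 CPM. The hepatocyte marker *TTR* and the macrophage marker *CD163* were at 0 in every library. Cholangiocyte markers summed to 83.9 to 85.3 CPM with miControl and to 36.8 to 39.9 CPM with miR-6133-5p, and within that list *SOX9* fell from a mean of 80.5 to 31.3 CPM while *KRT7* rose from 4.03 to 6.84 CPM (adjusted p = 0.00317, edgeR). The other 2 cholangiocyte markers, *KRT19* and *EPCAM*, were below 0.2 CPM in every library. The part of these marker shifts in the results was not tested.

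*MNAT1* had the largest log2 fold change of the 10 genes, although the value of *GTF2H4* was too uncertain to be compared with it. It lies on chromosome 14 of GRCh37 from 61201460 to 61436683 on the plus strand (ENSG00000020426), and its canonical transcript has 8 exons and 2648 bases. Raw counts were 308 and 341 in miControl replicates 1 and 2 and 2043 and 2649 in miR-6133-5p replicates 1 and 2. Scaled to CPM, these were 6.26 and 6.26 with miControl and 31.2 and 26.7 with miR-6133-5p. The 2 control libraries were alike, and both miR-6133-5p libraries were well above them. The mean went from 6.26 ± 0.00294 CPM (SD, n = 2) to 29.0 ± 3.20 CPM (SD, n = 2), a log2 fold change of 2.21 (SE 0.130, 95% interval 1.93 to 2.49), or 4.62-fold (3.81 to 5.61). This SE and these intervals do not allow for the choice of *MNAT1* by the same contrast, so they are not to be read as a test. In bulk RNA such as this, fewer cells expressing a gene and less of its RNA per cell cannot be told apart.

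Among all tested genes *MNAT1* had rank 42 by log2 fold change, and it had rank 2 among the 9567 genes whose mean log2 CPM was 3 or more. There it stood between *DPYSL3*, a cytoskeletal regulator, at 2.53, and *AMMECR1* at 2.07. Its counts could be assigned cleanly, as 0% of the 3436 stretches of 50 bases in its exons occurred anywhere else in GRCh37. A gene on the same strand, ENSG00000258892, shares 4.61% of its canonical exon bases and had 0 counts in every library.

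*CDK7*, the catalytic subunit, did not follow *MNAT1*. It lies on chromosome 5 from 68530622 to 68573257 on the plus strand (ENSG00000134058). Its levels were 45.3 and 43.4 CPM with miControl and 41.0 and 33.7 CPM with miR-6133-5p. Both miR-6133-5p libraries were below both control libraries, with the lowest value in miR-6133-5p replicate 2. The mean was 44.4 ± 1.38 CPM (SD, n = 2) with miControl and 37.3 ± 5.21 CPM (SD, n = 2) with miR-6133-5p. The log2 fold change was -0.25 (SE 0.116, 95% interval -0.50 to 0.0021) and did not pass the test (adjusted p = 0.127, edgeR). Over 11 alternatives of the processing, listed below, it ran from -0.40 to -0.09. The lowest value came without miR-6133-5p replicate 1 and the highest with library totals alone. Without miR-6133-5p replicate 2 it was -0.11.

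*CCNH*, which encodes cyclin H, was the only other gene of the complex that passed the wider call, which 14.1% of all tested genes passed in the higher direction. It lies on chromosome 5 from 86614233 to 86708747 on the minus strand (ENSG00000134480). Its levels were 62.6 and 64.9 CPM with miControl and 95.9 and 81.3 CPM with miR-6133-5p. The groups did not overlap, and the mean rose from 63.7 ± 1.62 CPM (SD, n = 2) to 88.6 ± 10.3 CPM (SD, n = 2). The log2 fold change was 0.48 (SE 0.110, 95% interval 0.24 to 0.71), or 1.39-fold (1.18 to 1.64), with an adjusted p of 0.00528 (edgeR). It was short of the fold of the study's call, and the wider call was lost without miControl replicate 1 (0.44, adjusted p = 0.0847, edgeR) and without miControl replicate 2 (0.48, adjusted p = 0.0633, edgeR). *RASA1*, a Ras GTPase-activating gene on the opposite strand, covers 12.9% of all *CCNH* exon bases and 0% of those in its canonical transcript. Another gene on the opposite strand, ENSG00000285190, covers 8.29% of all *CCNH* exon bases and 19.8% of those in its canonical transcript. That gene has no row in the count table. *RASA1* was at 130 and 142 CPM with miControl and at 239 and 258 CPM with miR-6133-5p, and it rose by a log2 fold change of 0.87 (SE 0.106, adjusted p = 4.38e-05, edgeR). The strand setting of the counting is not given in the sources used here, so the share of *CCNH* counts that came from *RASA1* or ENSG00000285190 was not tested.

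**Figure D1:**
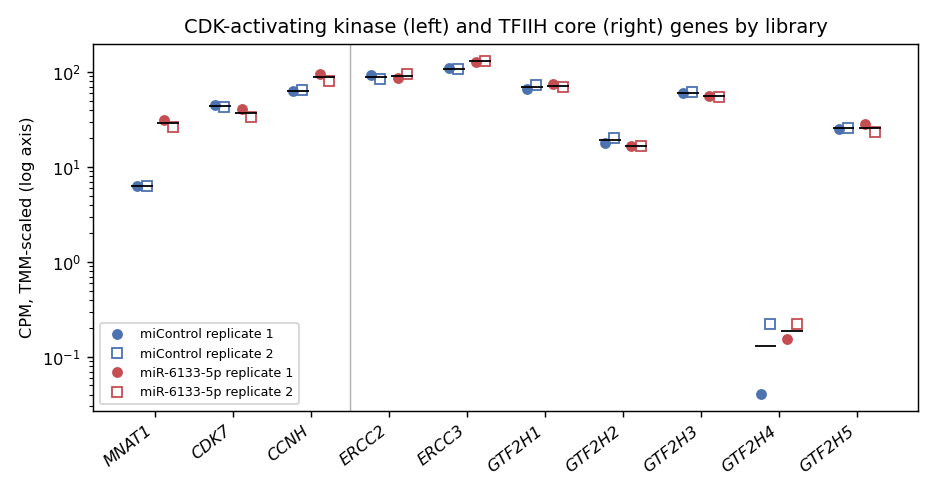
TMM-scaled CPM on a log axis for the 10 genes in each of the 4 libraries, with blue symbols for miControl, red symbols for miR-6133-5p, filled circles for replicate 1, open squares for replicate 2 and short black lines at the group means (n = 2). *MNAT1* moves from 6.26 CPM to between 26.7 and 31.2 CPM, while the groups of the other genes lie close together, and *GTF2H4* is near the bottom in every library.

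The balance of the 3 kinase subunits could be read within each library, since a ratio of 2 genes in one library does not depend on how libraries are scaled. Per kilobase of canonical transcript, the ratio of *MNAT1* to *CDK7* was 0.0744 and 0.0777 with miControl and 0.410 and 0.427 with miR-6133-5p. The mean ratio was thus 0.0761 ± 0.00233 (SD, n = 2) and 0.419 ± 0.0123 (SD, n = 2), a 5.51-fold difference. *MNAT1* remained below *CDK7* per kilobase in every library. The ratio of *MNAT1* to *CCNH* was 0.0484 and 0.0466 with miControl and 0.157 and 0.159 with miR-6133-5p, a 3.33-fold difference. These ratios contain the gene chosen by this contrast and were not tested.

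The ratio between the partners of *MNAT1* also differed. For *CCNH* to *CDK7* per kilobase it was 1.54 and 1.67 with miControl and 2.60 and 2.69 with miR-6133-5p. Its mean was 1.602 ± 0.0907 (SD, n = 2) and 2.65 ± 0.0616 (SD, n = 2), 1.65-fold higher with miR-6133-5p. The groups did not overlap and the gap between them was larger than the spread within each. A 2-sided exact permutation test gave p = 0.333, the smallest that 2 libraries against 2 allow. Set against *ERCC3*, a helicase of the TFIIH core, *CDK7* was at 0.783 and 0.774 with miControl and at 0.607 and 0.486 with miR-6133-5p, which did not overlap (exact permutation p = 0.333). *CCNH* against *ERCC3* was at 1.20 and 1.29 with miControl and at 1.58 and 1.31 with miR-6133-5p, where the lower mimic value lay just above the higher control value. *ERCC3* itself had a log2 fold change of 0.26, which lowers both ratios to it in the miR-6133-5p libraries.

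**Figure D2:**
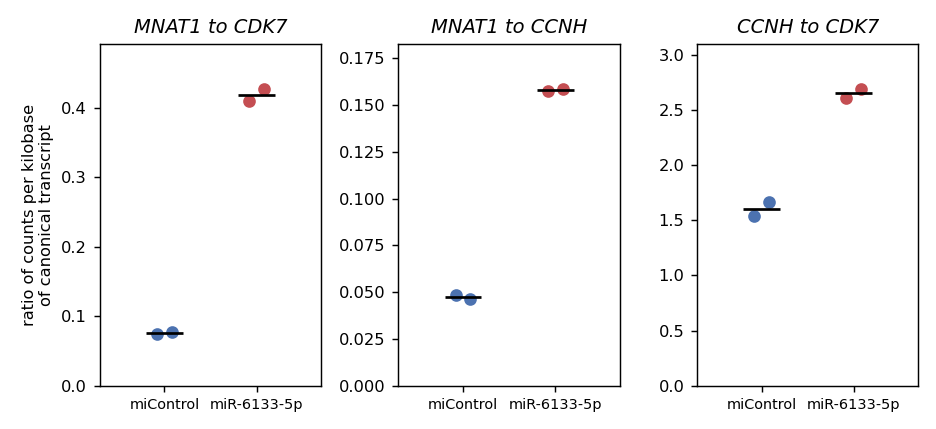
Ratios of counts per kilobase of canonical transcript between kinase subunit genes in each library, in 1 panel per ratio with an axis that starts at 0, a point per library (blue for miControl, red for miR-6133-5p) and a line at the group mean (n = 2). The ratios that contain *MNAT1* move 3.33-fold and 5.51-fold between the groups, and that of *CCNH* to *CDK7* moves 1.65-fold.

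Of the 7 core genes, 0 passed either call with edgeR or with DESeq2, a second count model, and 1 had an unadjusted p below 0.05 with each tool. In comparison, 2.9% of all tested genes were higher and 5.54% lower at the study's call, so 0 of 7 is near the background there. At the wider call 14.1% were higher and 16.1% lower. Every gene past the wider call also has an unadjusted p below 0.05, so the share of all tested genes below that limit is no smaller. The core genes had a median log2 fold change of 0.03, with 5 positive and 2 negative values. Over all tested genes 9550 values were positive and 8702 negative. *ERCC3*, the XPB subunit, whose activity opens the promoter, lies on chromosome 2 from 128014866 to 128051742 on the minus strand (ENSG00000163161) and was at 110 and 107 CPM with miControl and at 129 and 132 CPM with miR-6133-5p. Its groups did not overlap, the spread within each was small, and its log2 fold change was 0.26 (SE 0.100, 95% interval 0.05 to 0.48), with an unadjusted p of 0.0205 and an adjusted p of 0.0630 (edgeR). Over the 11 alternatives it ran from 0.22 to 0.43, and in 9 of them it stayed short of the wider call. The highest value came with library totals alone (adjusted p = 0.00489, edgeR), where the median of all tested genes also moved from 0.03 to 0.19. Leaving out 1 library at a time gave values from 0.22 to 0.28. *ERCC2*, the XPD helicase of repair to which MAT1 binds, lies on chromosome 19 from 45853095 to 45874176 on the minus strand (ENSG00000104884). It was at 92.3 and 85.5 CPM with miControl and at 87.0 and 95.9 CPM with miR-6133-5p, so the groups overlapped, and its log2 fold change was 0.04 (SE 0.105, 95% interval -0.19 to 0.27, adjusted p = 0.816, edgeR).

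The structural subunits showed small differences that did not pass the test. *GTF2H1*, the p62 subunit that contacts activators and repair factors, lies on chromosome 11 from 18343842 to 18388592 on the plus strand (ENSG00000110768). It was at 66.5 and 74.0 CPM with miControl and at 74.7 and 69.2 CPM with miR-6133-5p. The groups overlapped, and the log2 fold change was 0.03 (SE 0.105, 95% interval -0.19 to 0.26, adjusted p = 0.848, edgeR). *GTF2H3*, the p34 subunit, lies on chromosome 12 from 124118286 to 124147151 on the plus strand (ENSG00000111358). It was at 60.1 and 61.5 CPM with miControl and at 56.3 and 54.5 CPM with miR-6133-5p. Both mimic libraries were below both control libraries, with a log2 fold change of -0.13 (SE 0.0994, 95% interval -0.35 to 0.08, adjusted p = 0.349, edgeR), which was 0.03 with library totals alone. *GTF2H5*, a small subunit that stabilizes the complex, lies on chromosome 6 from 158589382 to 158620376 on the plus strand (ENSG00000272047). It was at 25.2 and 25.9 CPM with miControl and at 28.4 and 23.2 CPM with miR-6133-5p. The mimic libraries lay on either side of the controls, and the log2 fold change was 0.01 (SE 0.122, 95% interval -0.25 to 0.27, adjusted p = 0.968, edgeR).

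*GTF2H2*, the p44 subunit that stimulates the XPD helicase, could be read only in part because of its copies. It lies on chromosome 5 from 70330843 to 70363516 on the minus strand (ENSG00000145736), and 90.8% of the 5518 stretches of 50 bases in its exons occur at another place in GRCh37. The coding sequences of *GTF2H2* and its copy *GTF2H2C* each have 1185 bases and differ at 4 of them. Positions are counted from 1 at the start of the coding sequence, with the base of *GTF2H2* first, and the differences are A397G, A453G, G706C and G912A. The windows of 30 coding bases around A397G and G706C show how little separates the genes. Each is read on the strand of its gene in GRCh37, with the differing base in capitals, at chr5:70351238-70351267 (minus) and chr5:68868289-68868318 (plus) for A397G and at chr5:70343870-70343899 (minus) and chr5:68875625-68875654 (plus) for G706C.
GTF2H2: ataacgtctttgaagAaagctgtggatatg
GTF2H2C: ataacgtctttgaagGaagctgtggatatg
GTF2H2: ttgctcacacatcatGttagtcctcctcct
GTF2H2C: ttgctcacacatcatCttagtcctcctcct

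Counts on *GTF2H2* were 872 and 1113 with miControl and 1092 and 1645 with miR-6133-5p, or 17.7 and 20.4 CPM and 16.7 and 16.6 CPM. The groups did not overlap, and the log2 fold change was -0.20 (SE 0.119, 95% interval -0.46 to 0.06, adjusted p = 0.240, edgeR). Pairs that matched several loci were not kept, so those matching *GTF2H2* and its copies equally well are missing from these counts. They are missing too from the sum over *GTF2H2*, *GTF2H2B* and *GTF2H2C*. This sum was 51.4 and 56.7 CPM with miControl and 45.6 and 46.7 CPM with miR-6133-5p. Its means of 54.1 ± 3.74 (SD, n = 2) and 46.1 ± 0.775 CPM (SD, n = 2) had a log2 ratio of -0.23, in the same direction as *GTF2H2* alone. This sum was added after the data were seen.

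*GTF2H4*, the p52 subunit that anchors XPB, could not be assessed. It lies on chromosome 6 from 30875984 to 30881883 on the plus strand (ENSG00000213780), and its counts were 2 and 12 with miControl and 10 and 22 with miR-6133-5p. The log2 fold change, 0.51, had an SE of 0.733 and a 95% interval from -1.08 to 2.09 (adjusted p = 0.658, edgeR). Leaving out 1 library at a time gave values from -0.22 to 2.16. Another annotated gene on the same strand, ENSG00000288473, covers 98.0% of its canonical exon bases, and that gene has no row in the count table. On either side of it, *VARS2* had 1458 to 3391 counts and *DDR1* had 1132 to 2704 counts per library. The cause of the low counts of *GTF2H4* was not tested.

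Over the 9 genes other than *MNAT1*, 0 passed the study's call in either direction, with edgeR or with DESeq2. As 2.9% of all tested genes were higher and 5.54% lower at that call, 0 of 9 is near the background. Of the 9, 2 had an unadjusted p below 0.05, both of them higher. The share of all tested genes below that limit is not given here. At the wider call, 1 of the 9, *CCNH*, was higher and 0 were lower, where 14.1% of tested genes were higher and 16.1% lower. The groups did not overlap for 2 of the 9 in the higher direction (*CCNH* and *ERCC3*) and for 3 in the lower direction (*CDK7*, *GTF2H2* and *GTF2H3*), against 33.2% and 31.3% of all tested genes. Their log2 fold changes were positive for 6 and negative for 3, with a median of 0.03, beside a median of 0.03 over all tested genes, both rounded to 2 decimals. The upper limits of the 95% intervals were 0.71 for *CCNH*, 0.48 for *ERCC3* and 0.27 or less for the other genes apart from *GTF2H4*. As a description, the log2 fold change of *MNAT1* was 2.21 and those of these 8 genes lay between -0.25 and 0.48.

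**Figure D3:**
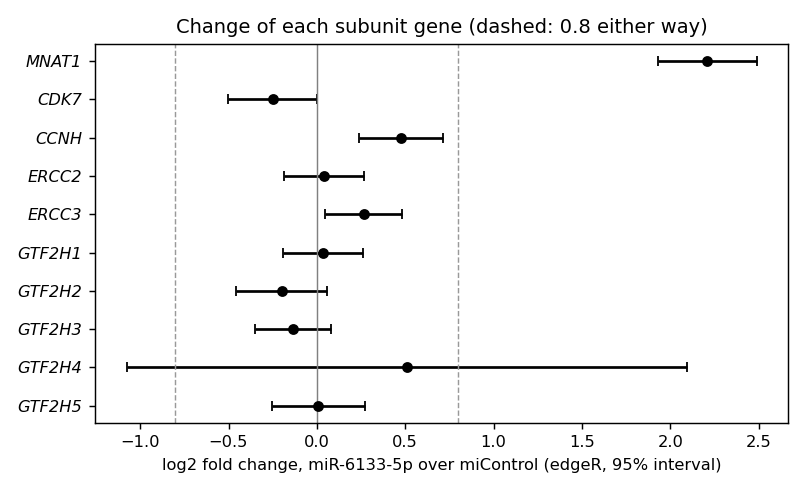
Log2 fold change, miR-6133-5p over miControl, for each of the 10 genes with its 95% interval from the edgeR fit. *MNAT1* at 2.21 stands apart, *CCNH* lies at 0.48 with an interval above 0, and *GTF2H4* has an interval from -1.08 to 2.09. The interval of *MNAT1* does not allow for its choice by this contrast.

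Levels of different genes were compared only per kilobase of canonical transcript. *CCNH* was highest in both groups, at a mean of 49.8 CPM per kilobase with miControl and 69.2 with miR-6133-5p. It was followed by *ERCC3* (40.0 and 48.0), *CDK7* (31.1 and 26.2), *GTF2H1* (23.3 and 23.9), *ERCC2* (21.6 and 22.3) and *GTF2H3* (18.3 and 16.7). The ranges of *GTF2H1* and *ERCC2* overlapped in both groups, so their order was not separated. *MNAT1* was at 2.37 ± 0.00111 CPM per kilobase (SD, n = 2) with miControl, rank 9 of 10, below *GTF2H5* at 3.42. With miR-6133-5p it reached 10.9 ± 1.21 CPM per kilobase (SD, n = 2), rank 7, above *GTF2H5* at 3.44. *GTF2H2* on its own was at 9.60, but pairs that match its copies equally well are missing from that level. The order of *MNAT1* and *GTF2H2* is therefore not settled. The ranks of *MNAT1* were also 9 and 7 when the length of all exons was used, a choice added after the data were seen, while the order among the most abundant genes changed, with *CDK7* first under miControl and *ERCC3* first under miR-6133-5p.

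Genes that work beside TFIIH were grouped in 5 lists of 75 genes, 74 of them tested. At the study's call, 4 were higher and 2 lower, and at the wider call 15 were higher and 9 lower. Over all tested genes, 2.9% were higher and 5.54% lower at the study's call and 14.1% and 16.1% at the wider one, and the counts of the single lists given next are to be read against these shares. The median log2 fold change of the 74 genes was 0.05, with 45 positive and 29 negative values. The signs in each list are to be read against the 9550 positive and 8702 negative values over all tested genes.

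The other general transcription factors assemble with TFIIH at promoters. Of 23 tested genes 8 had positive and 15 negative log2 fold changes, with a median of -0.12, and 1 was called higher and 0 lower. The called gene was *TBP*, the TATA-binding protein, at 23.0 and 22.4 CPM with miControl and 48.1 and 39.8 CPM with miR-6133-5p (log2 fold change 0.95, SE 0.118, adjusted p = 5.07e-05, edgeR). At the wider call 4 were higher and 4 lower, and the lowest was *GTF2F1*, the large subunit of TFIIF, at 119 and 113 CPM with miControl and 72.4 and 76.1 CPM with miR-6133-5p (log2 fold change -0.64, adjusted p = 0.000373, edgeR).

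RNA polymerase II is the substrate of CAK in transcription. Of its 12 subunit genes 11 had positive values, with a median of 0.16, but 0 passed the study's call with edgeR or DESeq2, and 2 had an unadjusted p below 0.05 with edgeR. At the wider call 1 was higher, *POLR2B*, the second largest subunit, at 200 and 213 CPM with miControl and 307 and 297 CPM with miR-6133-5p (log2 fold change 0.55, adjusted p = 0.00118, edgeR). The lowest value was that of *POLR2E*, -0.16 (adjusted p = 0.295, edgeR).

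The next list held the other transcriptional kinases and their partners. Of 17 genes 13 had positive values, with a median of 0.16, and 1 was called higher and 0 lower. That gene was *HEXIM1*, an inhibitor of the elongation kinase CDK9, at 51.3 and 50.6 CPM with miControl and 107 and 106 CPM with miR-6133-5p (log2 fold change 1.06, SE 0.100, adjusted p = 4.66e-06, edgeR). Its libraries were tight within each group, and the groups were far apart. At the wider call 5 were higher and 3 lower, and the lowest was *CCNK*, the cyclin of CDK12 and CDK13, at 75.0 and 73.6 CPM with miControl and 43.4 and 44.0 CPM with miR-6133-5p (log2 fold change -0.77, adjusted p = 7.65e-05, edgeR). Its kinases *CDK12* (log2 fold change -0.33, adjusted p = 0.0409, edgeR) and *CDK13* (log2 fold change -0.41, adjusted p = 0.00710, edgeR) were the other 2 genes of the list that were lower at this call.

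Of the 4 cell cycle kinases that CAK activates, 0 were called higher and 1 lower, and the median was 0.05. *CDK6*, a kinase of the G1 phase, was at 1035 and 1195 CPM with miControl and at 162 and 211 CPM with miR-6133-5p (log2 fold change -2.58, SE 0.139, adjusted p = 6.00e-08, edgeR). *CDK1*, the kinase of mitosis, passed only the wider call, with a log2 fold change of 0.52 (SE 0.111, adjusted p = 0.00322, edgeR).

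The repair partners work with the TFIIH core on damaged DNA. Of 18 genes 11 had positive values, with a median of 0.06, and 2 were called higher and 1 lower. *RPA1*, the large subunit of the single-strand binding protein RPA, was at 115 and 116 CPM with miControl and at 226 and 216 CPM with miR-6133-5p (log2 fold change 0.94, SE 0.102, adjusted p = 1.62e-05, edgeR). *RPA2*, its middle subunit, was at 44.5 and 48.1 CPM with miControl and at 90.6 and 76.3 CPM with miR-6133-5p (log2 fold change 0.85, SE 0.113, adjusted p = 9.23e-05, edgeR). *CETN2*, a centrin bound to the damage sensor XPC, fell from 78.9 and 81.0 CPM to 45.4 and 38.6 CPM (log2 fold change -0.93, SE 0.110, adjusted p = 3.32e-05, edgeR). With library totals alone *CETN2* was at -0.77, short of the fold of the study's call. *RPA2* was short of it without miControl replicate 1 (0.79) and without miR-6133-5p replicate 1 (0.72). At the wider call 4 genes were higher and 1 lower. Tested against a log2 fold change of 0.8 with glmTreat, *TBP*, *HEXIM1*, *RPA1*, *RPA2* and *CETN2* passed neither call, with adjusted p-values of 0.522, 0.0662, 0.480, 1 and 0.596 (edgeR).

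**Figure D4:**
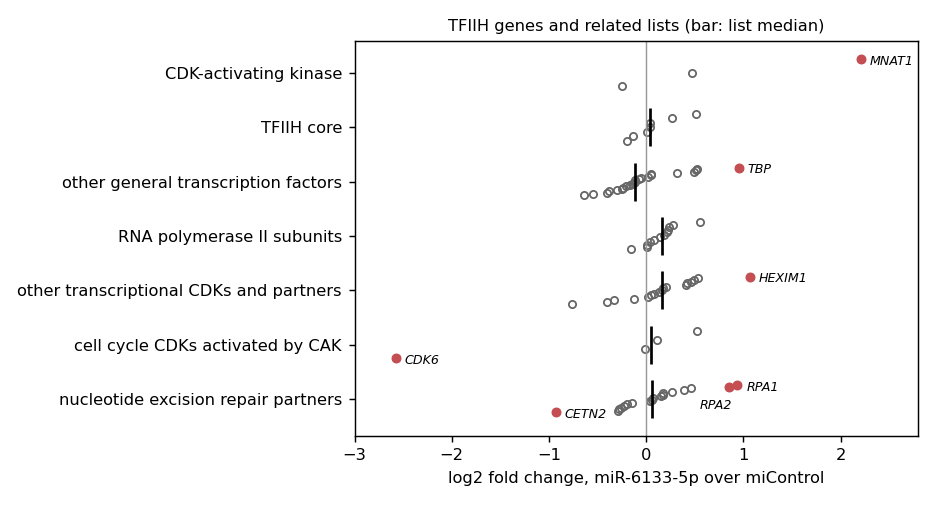
Log2 fold change, miR-6133-5p over miControl, of each tested gene of the kinase, the TFIIH core and the 5 lists around them, with a bar at the median of each list except that of the kinase. Filled points are genes beyond both limits of the study's call, with *MNAT1* among them because it was chosen by this contrast, and *CDK6* at -2.58 and *MNAT1* at 2.21 are the farthest from 0.

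Within 500 kb of the gene, results are given for 4 genes on chromosome 14 with enough counts to be tested. These were *PPM1A*, a protein phosphatase, with a log2 fold change of 0.22 (95% interval -0.01 to 0.45), *TRMT5*, a transfer RNA methyltransferase, with 0.19, *SLC38A6*, a predicted amino acid transporter, with 0.09, and *SIX4*, a homeobox gene, with -0.22. Of these, 0 passed either call and 0 had an unadjusted p below 0.05 with edgeR or with DESeq2, and their median was 0.14. With 2.9% to 16.1% of all tested genes called, depending on the call and direction, 0 of 4 is near the background.

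**Figure D5:**
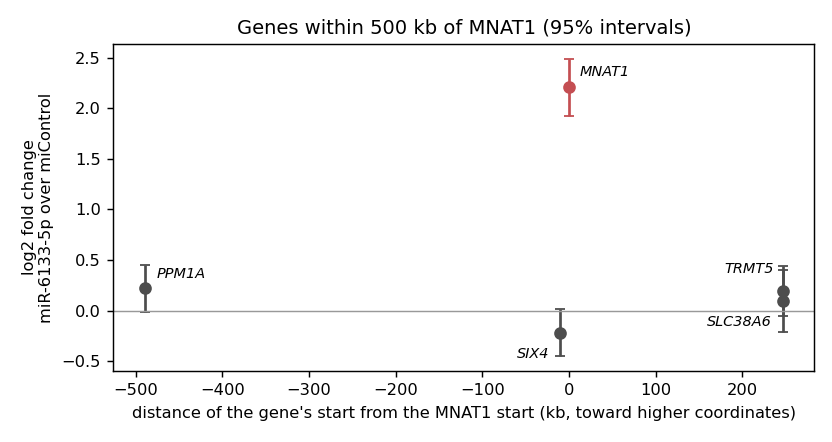
Log2 fold change of *MNAT1* and of 4 tested genes within 500 kb, against the distance from the start of *MNAT1* in kilobases along its direction of transcription. *MNAT1* lies at 2.21 and the 4 neighbours between -0.22 and 0.22. The interval drawn for *MNAT1* does not allow for its choice by this contrast.

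Genes with patterns most like that of *MNAT1* were sought over the 4 libraries, among those whose mean log2 CPM was 3 or more, by the Euclidean distance between log2 CPM values centred on each gene's mean. The nearest were *AMMECR1* (0.222), *DPYSL3* (0.386), *KRT81*, a hair keratin gene (0.389), *SESN3*, a stress-inducible sestrin gene (0.414), and *TRIM23*, a ubiquitin ligase gene (0.437). *AMMECR1*, for example, was at 19.1 and 20.0 CPM with miControl and at 81.7 and 82.7 CPM with miR-6133-5p. Of the genes of the complex, *CCNH* came nearest to *MNAT1*, at a distance of 1.73, followed by *ERCC3* at 1.95, and *CDK7* lay farthest away among those with such a level, at 2.46. With 4 libraries in 2 groups, this distance mainly reflects the size of the difference between the groups.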

How the data were processed

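Per the labels, RNA was made into libraries with a TruSeq Stranded mRNA kit. The authors aligned read pairs to GRCh37, and the submitters' processing notes name STAR 2.5.3a, featureCounts and Subread 1.6.4. The deposited table holds whole-number counts per Ensembl gene without normalization, and its values were identical to those of the single-library files. The annotation release and strand setting are not given in the sources used here. The fraction of uniquely mapped read pairs, deposited by the authors in the aligner's summary, was 96.5 to 96.8 percent, 0 pairs at several loci were kept, and counts per unique pair were 1.68 to 1.70, so most pairs gave more than 1 count and counts are not independent molecules.

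Counts were filtered with filterByExpr, scaled by TMM (factors 0.948, 0.941, 1.06 and 1.06) and compared 2-sided with the quasi-likelihood test of edgeR 4.0.16 in R 4.3.3, with all 4 libraries and no block. Symbols were paired with 55665 of 63677 gene rows. *TAF9*, *GTF2H2D* and *GTF2H2C_2* had no row under these symbols. Positions, exons and overlaps were taken from GENCODE models mapped onto GRCh37, possibly not the annotation behind the counts. Alternatives used RLE scaling, library totals, DESeq2 1.42.0, other filters, a replicate block, glmTreat and each library left out. The procedure was tested on simulated data in which all genes shared a common spread. The planted changes were larger than those of *CDK7* and *CCNH*, so shifts as small as theirs were not covered. Genes named are those of the complex, list genes past the study's call, the largest rise and fall of each list, the neighbours and the 5 nearest patterns, while *RASA1*, *VARS2*, *DDR1*, *CDK12* and *CDK13* were named after their values were seen. The result of 1 gene is not reported here. The genes of the complex, the lists and the tests were chosen with earlier results of these data known.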

Additional observations from a re-analysis of the deposited data

How the results depend on the processing

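Over 11 alternatives the log2 fold change of *MNAT1* ran from 2.09 to 2.37, with 2.09 to 2.32 without each library and 2.37 with library totals alone. Library totals alone moved the median of all tested genes from 0.03 to 0.19 and the calls from 529 higher and 1011 lower to 977 higher and 709 lower. In that setting the 9 other genes had a median of 0.20 and 2 were higher at the wider call, while the lists had 1 lower at the study's call and 29 higher and 5 lower at the wider one. With glmTreat, which tests against the fold itself, the lists had 0 higher and 1 lower, and all tested genes 80 higher and 326 lower, against 488 and 1015 with DESeq2. Leaving out each library gave 0 to 2 of the 9 genes higher and 0 to 1 lower at the wider call, and 6 to 18 list genes higher and 5 to 13 lower. Without miControl replicate 1 and without miControl replicate 2, which leave 1 control assumed to vary like the other group, the lists had 6 and 9 higher and 5 and 5 lower. *ERCC2*, *GTF2H1* and *GTF2H5* ran from -0.04 to 0.20, -0.05 to 0.20 and -0.14 to 0.17, so their direction is not set. Of the 9 other genes, 0 passed the study's call in any of the alternatives. The cause of these shifts was not tested.

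Deviations of same-numbered libraries from their group means had a correlation of 0.0490, so little shift was shared between them. This cannot tell whether the libraries were paired by design. With a replicate block *MNAT1* was at 2.20, 642 genes were called higher and 1130 lower, 0 of the 9 other genes passed the study's call and 1 passed the wider one, and the lists had 4 higher and 2 lower, or 16 and 10 at the wider call.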
